A study of Mus musculus with 5 samples.

Results

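The genes described are the variable segments of the alpha-beta T cell receptor, which are all genes of the deposited count table whose symbol starts with Trav or Trbv. The rule found 102 of the 18767 genes, of which 77 are Trav segments and 25 are Trbv segments. Each segment is given as its share of all Trav or all Trbv UMIs (unique molecular identifiers, each standing for 1 captured transcript) of a library or of a cluster of cells. CD45+ cells, the immune cells of the tissue, had been sorted from thyroids of NOD.WT mice and sequenced with a 10x Genomics 5′ assay. The ICI group (immune checkpoint inhibition) received the anti-PD-1 clone RPM1-14 together with the anti-CTLA-4 clone 9D9 at 10 mg/kg per dose, and the isotype group received control antibodies (clones 2A3 and MPC11). Animals of both sexes entered treatment at 4 to 6 weeks of age and were dosed 2 times a week over 4 weeks. Thyroids of 16 ICI mice were pooled into 4 libraries and those of 10 isotype mice gave 1 library, and the number of mice in each library is not given. The NOD strain develops autoimmunity without any of these antibodies, and both groups share it. Because the isotype group is 1 library, the p-values of all ICI against isotype tests measure the spread between ICI libraries only.

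A T cell builds each receptor chain by cutting and joining DNA. The beta chain locus is rearranged first, in thymocytes that have not yet made an alpha chain and that carry the beta chain with pre-T alpha (Ptcra). The alpha locus follows and can be rearranged again and again on both chromosomes, starting from the Trav segments nearest the joining segments, so that each mature cell transcribes mainly 1 Trbv and 1 or a few Trav segments. The delta locus lies inside the alpha locus, and segments with dv in their name can join either chain. Semi-invariant T cells use fixed segments, with Trav11 on invariant natural killer T cells of the mouse and Trav1 on mucosal-associated invariant T cells.

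The sequences below are the ends of some of the members on which the results turn. At this end a segment meets the joint and enters the receptor loop that touches antigen. Each is the end of the coding part of the GENCODE M21 transcript (build GRCm38, which is mm10), written 5′ to 3′, with capitals from the last in-frame cysteine codon to the germline end of the segment. The most used Trbv family is Trbv13, with Trbv13-2 at chr6:41121396-41121832, plus strand. Trbv12-1 and Trbv12-2 lie beside Trbv13-1 and Trbv13-2, with 2031 bases between Trbv12-2 and Trbv13-2. Trbv31 lies at chr6:41557691-41558452, minus strand, beyond the constant genes and turned the other way. These Trbv segments are examples of those with the most UMIs, with every ICI library on one side of isotype, or with many or few UMIs per cell. Others of these kinds, among them Trbv1 and Trbv17, are not shown. Trbv12-1 and Trbv12-2 have the same letters in capitals, as do Trbv13-1 and Trbv13-3.
Trbv13-1: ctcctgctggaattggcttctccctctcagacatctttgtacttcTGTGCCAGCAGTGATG
Trbv13-2: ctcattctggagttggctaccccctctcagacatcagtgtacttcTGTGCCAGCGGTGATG
Trbv13-3: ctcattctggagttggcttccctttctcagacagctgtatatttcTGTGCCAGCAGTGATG
Trbv12-1: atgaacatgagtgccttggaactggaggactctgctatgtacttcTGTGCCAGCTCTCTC
Trbv12-2: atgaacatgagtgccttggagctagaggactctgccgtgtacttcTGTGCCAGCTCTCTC
Trbv31: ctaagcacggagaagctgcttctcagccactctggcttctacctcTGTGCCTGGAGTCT
Trbv15: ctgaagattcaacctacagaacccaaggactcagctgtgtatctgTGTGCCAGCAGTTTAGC
Trbv5: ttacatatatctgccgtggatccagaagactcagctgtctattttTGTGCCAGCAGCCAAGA

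For Trav the copies matter, since the middle of the locus is duplicated and many segments have near-identical d and n copies. The Trav10 pair below has the same letters in capitals, and so do the 3 of the 5 Trav14 copies that are shown. The Trav14 family had a steady sum while its copies were not steady. The Trav15 pair and Trav21-dv12 can serve the delta chain, and Trav11 is the invariant segment.
Trav10: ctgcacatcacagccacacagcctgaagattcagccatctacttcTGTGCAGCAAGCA
Trav10d: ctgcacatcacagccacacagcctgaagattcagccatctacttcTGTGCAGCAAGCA
Trav14d-3-dv8: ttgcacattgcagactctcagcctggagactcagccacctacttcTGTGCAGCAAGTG
Trav14n-3: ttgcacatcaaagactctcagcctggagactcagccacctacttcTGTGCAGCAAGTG
Trav14-1: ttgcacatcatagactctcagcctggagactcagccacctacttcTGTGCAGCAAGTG
Trav15-1-dv6-1: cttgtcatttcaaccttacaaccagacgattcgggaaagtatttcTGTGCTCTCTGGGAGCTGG
Trav15-2-dv6-2: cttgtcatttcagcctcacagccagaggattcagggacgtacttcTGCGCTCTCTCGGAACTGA
Trav21-dv12: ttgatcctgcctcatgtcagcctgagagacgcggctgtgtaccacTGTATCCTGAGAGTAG
Trav11: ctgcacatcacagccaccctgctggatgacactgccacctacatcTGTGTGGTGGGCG

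Over whole coding sequences, the nearest other annotated segment of the same locus was 97.2% identical at the median of the 77 Trav segments, and 66.3% identical at the median of the 25 Trbv segments. Of the 50-base stretches of a segment, a median of 54.2% for Trav and 100% for Trbv occurred in no other annotated variable segment. For 34 Trav segments less than 50% did, and these held 28.0% of Trav UMIs. Counts of single Trav copies are therefore uncertain, and Trav results are given by family (the name up to the first dash, with d and n copies joined, 23 families) unless a copy is the subject. All 102 members matched the annotation, with 9 of the Trav segments named dv. Pseudogenes made up 7 Trav and 3 Trbv members with 0.504% and 0.577% of the UMIs. The reference is of C57BL/6 origin and the mice are NOD, so allelic differences may also move reads between copies, and this was not tested.

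The ICI libraries 1 to 4 held 1523, 1219, 1163 and 5018 cells and the isotype library 1352, and total depth ran from 3858251 to 32296759 UMIs. ICI 2 and ICI 3 shared 140 cell barcodes. In all 49 of these with a called Trbv segment in both libraries (the segment with most UMIs in the cell, ties left out) the segment was the same, as was the Trav segment in 24 of 30. The other 14 pairs of sequencing runs shared 53 barcodes, with the same Trbv segment in 1 of 30. ICI 2 and ICI 3 thus hold some of the same cells, and removing the copy with fewer UMIs of each shared barcode took out 180 cells. They may not be separate replicates. The SDs, p-values and counts of libraries given here treat them as separate, so the independent n may be smaller than the 4 or 5 stated. ICI 1 to 3 held 614 to 2563 UMIs of Xist, the female-specific transcript, against 4 in ICI 4 and 0 in isotype, so sex differs between libraries within the ICI group. Hbb-bs, a hemoglobin gene of red blood cells, had 0 UMIs in each of ICI 1 to 3 and 26385 in ICI 4, against 3218 in isotype. ICI 4 and isotype thus stood apart from ICI 1 to 3 in both genes, and the part of this split in the results was not tested. Values of ICI 4 set against isotype alone are given beside the differences they touch. Clusters are the authors' own; 5 is called cycling thymocyte-like, 2 and 11 thymocyte-like, 4 regulatory T-like, 6 gamma-delta T-like, 7 macrophage-like, 8 natural killer-like, 10 type 2 innate lymphoid-like, 14 B-like and 16 dendritic-like from their markers. The others keep their number.

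Trbv use was spread over many segments, and Trbv13-2 had the largest share in every library except ICI 2, where Trbv1 and Trbv15 lay just above it. Of the 25 Trbv segments 24 had UMIs in the isotype library and 21 to 25 in each ICI library, and 19 had 1000 or more UMIs in all. The 10 most used segments held 74.4% of Trbv UMIs as a mean over the 5 libraries. Trbv13-2 held 14.0%, 9.43%, 11.7% and 14.3% of Trbv UMIs in ICI 1 to 4, against 13.6% in isotype. Its ICI values lay on both sides of isotype. Trbv13-2 was also the segment with the largest share in 13 of the 15 clusters that had 200 or more Trbv UMIs, the others being the macrophage-like cluster 7 (Trbv15) and the dendritic-like cluster 16 (Trbv31). Behind it came Trbv1, Trbv15, Trbv13-1, Trbv16, Trbv3, Trbv19, Trbv31, Trbv29 and Trbv17, with mean shares between 9.00% and 4.57%.

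The study's comparison of ICI with isotype asks here whether checkpoint inhibition went with another choice of segments. Trbv12-2, Trbv12-1 and Trbv31 held less of the Trbv UMIs in all 4 ICI libraries than in isotype. Trbv12-2 held 3.06%, 2.30%, 1.41% and 3.33% in ICI 1 to 4, against 6.82% in isotype. Trbv12-1 held 0.543%, 1.63%, 2.67% and 2.52% in ICI 1 to 4, against 4.33% in isotype. Trbv31 held 4.61%, 3.59%, 4.58% and 5.43% in ICI 1 to 4, against 8.21% in isotype. In none of the 3 did the ICI libraries reach the isotype value, and ICI 4 was the nearest to it for Trbv12-2 and Trbv31. None of these differences could pass an exact two-sided permutation test over 4 libraries against 1, whose smallest p is 0.2, and each had that p (0.833 after Benjamini-Hochberg adjustment over the 25 Trbv segments).

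In cells rather than UMIs the 3 segments differed from each other. Each cell counted once for its called segment, Trbv12-2 was called in 2.49%, 2.56%, 1.07% and 1.58% of cells with a call in ICI 1 to 4, against 4.34% in isotype. Trbv12-1 was called in 0.728%, 1.65%, 2.44% and 2.57% in ICI 1 to 4, against 5.01% in isotype. Trbv31 was called in 5.41%, 4.36%, 5.49% and 6.11% in ICI 1 to 4, against 5.97% in isotype, so that ICI 4 lay above it. The lower Trbv31 share thus did not hold in all 4 ICI libraries when cells were counted. It also failed to do so when cells with 2 Trbv segments at 2 or more UMIs each were removed (4.87%, 3.41%, 4.41% and 5.69%, against 5.47%), whereas Trbv12-2 in isotype then stood at 11.7%, against 2.05%, 2.26%, 1.20% and 2.45% in ICI 1 to 4.

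These 3 segments were also compared without the thymocyte-like and cycling clusters. In clusters 0, 1, 3, 4, 6 and 9, Trbv12-2 held 2.64%, 2.57%, 1.52% and 2.10% in ICI 1 to 4, against 3.02% in isotype. Trbv12-1 held 0.574%, 0.809%, 1.78% and 1.68%, against 3.36%, and Trbv31 held 5.35%, 3.63%, 5.23% and 5.67%, against 5.98%. All 3 stayed below isotype in 4 of 4 ICI libraries there, with mean differences of -0.81 points for Trbv12-2, -2.15 for Trbv12-1 and -1.01 for Trbv31, compared with -4.30, -2.49 and -3.66 points over all cells. In the cycling thymocyte-like cluster 5 itself, Trbv31 held 0.426%, 3.65%, 3.56% and 4.80% in ICI 1 to 4, against 11.4% in isotype, where 17 cells carried its 791 UMIs.

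Above isotype in all 4 ICI libraries, with the largest differences, were Trbv5, Trbv15, Trbv1, Trbv13-3 and Trbv16. In all, 6 of 25 Trbv segments lay above isotype in every ICI library and 5 below, where 23.2% and 22.5% of all 12659 tested genes did so by CPM (counts scaled to a common library size). Those shares are close to the background. Trbv1 held 8.83%, 9.72%, 8.56% and 9.90% in ICI 1 to 4, against 7.97% in isotype. Trbv5 held 1.55%, 7.98%, 5.35% and 1.47% in ICI 1 to 4, against 1.04% in isotype, with ICI 2 and ICI 3 apart from the others and a mean difference of 3.04 points that came to 1.74 without ICI 2 and to 0.424 with ICI 4 alone. Trbv17 likewise held 3.41%, 7.96%, 6.13% and 2.05% in ICI 1 to 4, against 3.32% in isotype. Without the lower copies of shared barcodes Trbv5 stood at 8.09% and 5.23% in ICI 2 and ICI 3, close to these values. With cells of 2 Trbv segments removed it stood at 1.81%, 7.64%, 5.51% and 1.47% in ICI 1 to 4, against 1.59% in isotype, so that ICI 4 lay below. Trbv15 was above isotype in 4 of 4 ICI libraries by UMIs, in 3 of 4 without its highest cell and in 1 of 4 by cells. Trbv16 was above in 3 of 4 with cells of 2 Trbv segments removed and in 2 of 4 in clusters 0, 1, 3, 4, 6 and 9. The mean difference of Trbv1 was 1.28 points over all cells, 2.84 with cells of 2 Trbv segments removed and 4.25 in clusters 0, 1, 3, 4, 6 and 9.

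**Figure D1:**
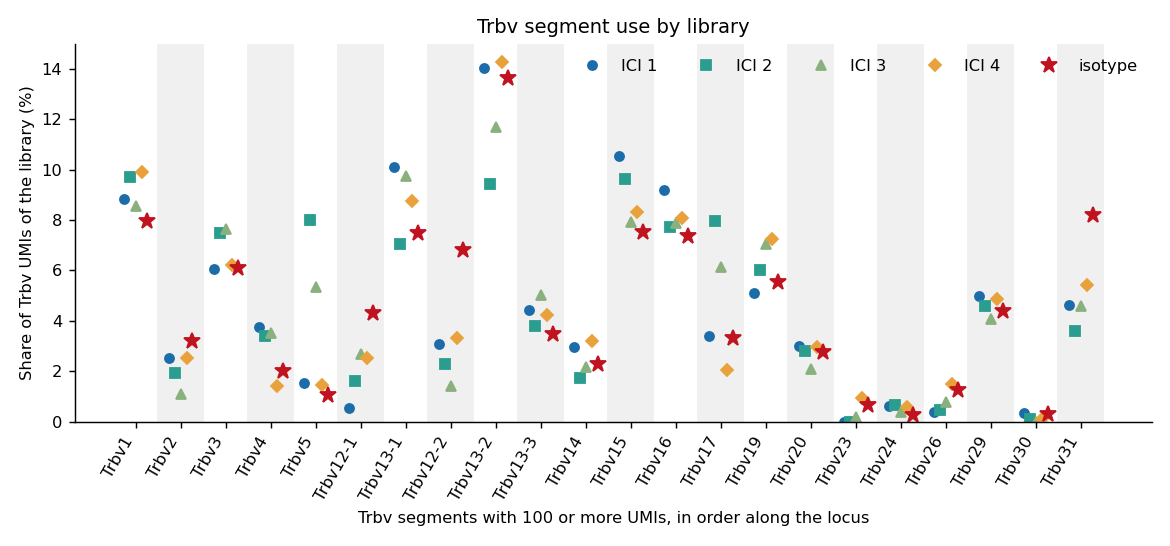
Share of each library's Trbv UMIs held by the 22 Trbv segments with 100 or more UMIs, in their order along the locus. Each symbol is 1 library; Trbv12-1, Trbv12-2 and Trbv31 are highest in isotype (stars), and Trbv5 and Trbv17 are highest in ICI 2 and ICI 3.

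The number of segments in even use was lower in ICI. At 656 cells with a called Trbv segment per library, the effective number of Trbv segments (the exponential of the Shannon entropy) was 15.9, 16.8, 16.3 and 16.2 in ICI 1 to 4, against 18.1 in isotype. The ICI mean was 16.3 ± 0.367 (SD, n = 4) and isotype lay above every ICI library, at the smallest p the exact permutation test allows (0.2; 0.4 after adjustment over 6 library measures). For Trav families at 521 cells per library it was 13.7, 14.1, 13.8 and 14.3 in ICI 1 to 4, against 14.2 in isotype (exact permutation p = 0.8), with isotype inside the ICI range. From UMI shares over all cells, the Trbv value was 0.79 lower in ICI on average, against 1.79 lower when cells were counted.

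The same counts were tested as levels in edgeR over the whole gene table, and no segment passed. Of the 102 members 82 had enough counts to be tested over all cells and 82 over the T-lineage clusters (0, 1, 2, 3, 4, 5, 6, 9, 11 and 12), and edgeR called 0 at an adjusted p under 0.05 in either fit, beside 0% of the 12659 and 11559 genes tested. At an unadjusted p under 0.05 there were 2 and 6 members, where 4.08% and 5.46% of all genes were. DESeq2 called 38 and 25 genes, none a member. Trbv levels lay mostly lower. More Trav levels lay higher than lower, but the part above isotype in every ICI library did not stand out from all genes. Over the T-lineage clusters 20 of 22 tested Trbv segments had a negative log2 fold change (median -0.60, against 0.02 for all genes tested). Of these 22, 17 (77.3%) were below isotype in all 4 ICI libraries, against 27.7% of all genes. Of 60 tested Trav segments 38 had a positive log2 fold change (median 0.26). Above isotype in all 4 were 9 of the 60 (15%), under the 25.8% of all genes. Over all cells 14 of 60 were (23.3%), near the 23.2% of all genes. A lower level over pooled cells cannot be told apart from fewer cells of a kind or fewer transcripts per cell.

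Trbv31 had the smallest p among the members. Over the T-lineage clusters it stood at 83.0, 62.0, 79.2 and 118 CPM in ICI 1 to 4, against 284 CPM in isotype. No ICI library reached the isotype level, and the log2 fold change was -1.73 (SE 0.36, edgeR adjusted p = 0.698). Trbv12-2 stood at 61.4, 36.6, 21.6 and 69.1 CPM in ICI 1 to 4, against 231 CPM in isotype (log2 fold change -2.28, SE 0.55, edgeR adjusted p = 0.698). Without ICI 4, which leaves ICI 1 to 3, edgeR called 373 of 11440 tested genes over the T-lineage clusters. Among the 79 members tested it called 2, no larger a part than among all genes. These were Trbv31 and Trbv23 (the second outside the naming rule and chosen after its value was seen), both lower in ICI.

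Of the 20 genes of the receptor and its recombination, none passed edgeR over the T-lineage clusters (lowest adjusted p = 0.698; median log2 fold change -0.18, against 0.02 for all genes tested), and 10 were below isotype in all 4 ICI libraries, against 27.7% of all genes. Above isotype in all 4 were 2, Zap70 and Cd3e, against 25.8% of all genes. Trbc1, a beta constant gene, stood at 231, 112, 144 and 587 CPM in ICI 1 to 4, against 812 CPM in isotype. Rag1, which cuts the DNA, stood at 4.38, 0, 0 and 22.97 CPM in ICI 1 to 4, against 62.6 CPM in isotype. Trac, the alpha constant gene, stood at 249, 315, 306 and 225 CPM in ICI 1 to 4, against 250 CPM in isotype, on both sides of it. The beta constant genes and Rag1 thus lay on the same side as the Trbv segments, and Trac did not. Of the thymocyte markers, Dntt, which adds bases at the joints, stood at 101, 0.795, 2.79 and 279 CPM in ICI 1 to 4, against 363 CPM in isotype. The part of thymocyte-like cells in the Trbv levels was not tested by a model; values without their clusters are given next.

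Trbv transcripts outnumbered Trav transcripts, and with all libraries together by far the most in the cycling thymocyte-like cluster 5. Its 805 cells held 33217 Trbv UMIs and 2610 Trav UMIs, or 12.7 Trbv UMIs per Trav UMI, and 34.2% of all Trbv UMIs of the series. Cluster 0, the largest, held 1.63 Trbv UMIs per Trav UMI. By library, cluster 5 stood at 8.49, 2.18, 2.25 and 15.2 in ICI 1 to 4, against 13.6 in isotype. Only 18 and 25 cells of ICI 2 and ICI 3 were in it, and in these libraries cluster 6 stood higher, at 5.45 and 6.83 on 40 and 41 Trav UMIs. The small thymocyte-like cluster 11 had 3.67 and the thymocyte-like cluster 2 had 2.17. Cluster 5 had more UMIs per cell (median 13085, where cluster 0 had 3418). Per 10000 UMIs its Trbv level was 26.9, where cluster 0 had 19.7, while its Trav level of 2.11 was below the 12.1 of cluster 0. With all libraries together, Ptcra was found in 43.6% of cluster 5 cells and in 0.193% of cluster 0 cells. Over the T-lineage clusters, which include cluster 5, Ptcra stood at 14.0, 0, 0 and 21.0 CPM in ICI 1 to 4, against 39.5 CPM in isotype. The cluster 5 cells of ICI 2 and ICI 3 thus had no Ptcra UMI. The name thymocyte-like comes from markers over all libraries together and is not shown for these cells.

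Summed over a library, Trbv stood at 16.2, 11.6, 11.8 and 19.0 UMIs per 10000 in ICI 1 to 4, against 23.3 in isotype. Trav stood at 9.44, 7.36, 7.07 and 5.93 UMIs per 10000 in ICI 1 to 4, against 5.77 in isotype. Trbv was thus below isotype and Trav above it in 4 of 4 ICI libraries, with exact permutation p = 0.2 and 0.4. Trbv UMIs per Trav UMI were 1.72, 1.58, 1.67 and 3.20 in ICI 1 to 4, against 4.04 in isotype. Without clusters 2, 5 and 11 the ratio was 1.39, 1.54, 1.65 and 2.05 in ICI 1 to 4, against 2.90 in isotype, still lower in all 4, while the Trbv level was 13.6, 11.04, 11.1 and 14.3 per 10000, against 14.3 in isotype, and no longer below it in ICI 4. Within cluster 0, where isotype had 119 cells, the ratio was 1.44, 1.34, 1.33 and 1.68 in ICI 1 to 4, against 2.39 in isotype. In that cluster Trav UMIs per cell (4.73, 4.47, 5.10 and 4.09 in ICI 1 to 4, against 4.32 in isotype) lay on both sides, and Trbv UMIs per cell (6.81, 5.98, 6.77 and 6.89, against 10.3) lay below isotype in 4 of 4. Other clusters held this order in part. In cluster 3 the ratio was 1.62, 1.81, 1.54 and 2.37 in ICI 1 to 4, against 2.89 in isotype (57 cells), and Trbv UMIs per cell were 7.44, 7.88, 8.94 and 8.94, against 13.6. In cluster 1 the ratio was 1.21, 1.57, 1.76 and 1.91 in ICI 1 to 4, against 2.38 in isotype (45 cells), but Trbv UMIs per cell of 3.20, 6.75, 8.63 and 7.92 lay on both sides of the 7.47 in isotype. In cluster 4 Trbv UMIs per cell were 3.94, 5.25, 5.67 and 8.43 in ICI 1 to 4, against 8.93 in isotype (28 cells), but the ratio of 1.31, 1.51, 1.17 and 2.93 lay on both sides of the 2.21 in isotype. The macrophage-like cluster 7 held 2.30, 0.227, 0.259 and 4.31 Trbv UMIs per cell in ICI 1 to 4, against 19.2 in isotype, where its ratio was 4.79. The part of free transcripts and of droplets that hold 2 cells in the differences within clusters was not tested.

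**Figure D2:**
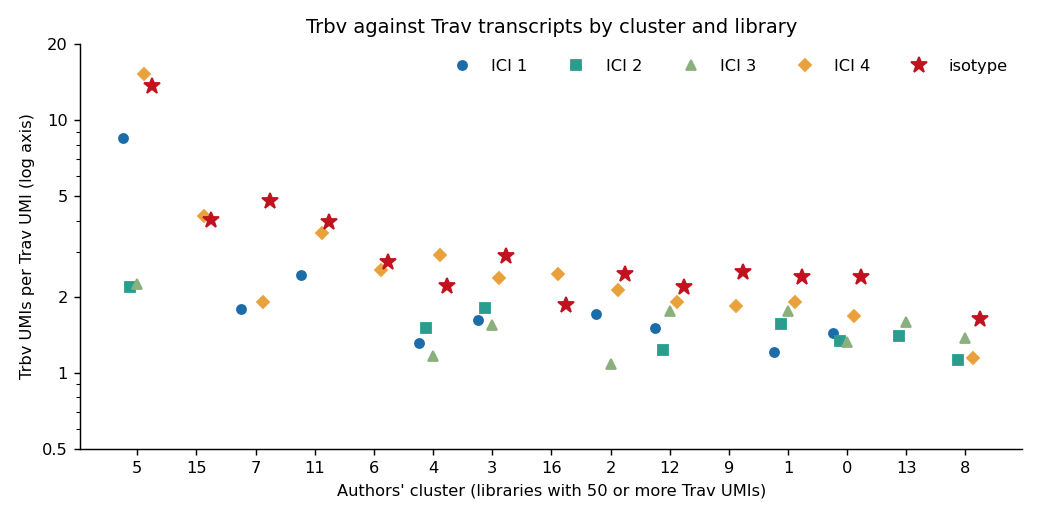
Trbv UMIs per Trav UMI (log axis) in each authors' cluster and library with 50 or more Trav UMIs, clusters ordered from the highest pooled ratio. Cluster 5 stands at 15.2 in ICI 4 and 13.6 in isotype (star), and in cluster 0 isotype lies above all 4 ICI libraries.

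Segments differed in how many transcripts a cell carried. In cells of clusters 0, 1, 3, 4 and 9 called for a segment, Trbv17 had a mean of 14.2 UMIs and Trbv15 13.0, whereas Trbv2 had 3.19 and Trbv5 2.93. Over libraries with 5 or more such cells, Trbv15 ranged from 9.00 to 14.35 UMIs and Trbv2 from 2.69 to 3.58, so the ranges of the 2 segments did not overlap. Trbv5 had 2.03, 4.72, 5.05 and 1.85 UMIs per called cell in ICI 1 to 4, against 1.80 in isotype, again with ICI 2 and ICI 3 apart. A share of UMIs therefore weighs Trbv15 and Trbv17 more than a share of cells does. Trbv5 was called in 3.85%, 9.92%, 8.54% and 4.76% of cells in ICI 1 to 4, against 4.05% in isotype, and Trbv15 in 5.61%, 5.26%, 4.73% and 4.99%, against 5.39%.

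In cluster 5 every one of the 17 segments with 20 or more called cells had more UMIs per called cell than in the other set. Trbv1 had 58.9 there and 9.55 in clusters 0, 1, 3, 4 and 9. Trbv12-2 had 55.1 and 4.93, and Trbv31 had 54.5 and 6.32, so both changed place: Trbv12-2 ranked 16 of 17 from the lowest in cluster 5 and 6 of 20 in the other set. Trbv5 and Trbv2 were the 2 lowest in cluster 5 too, with 9.05 and 14.0 UMIs. Cells of cluster 5 also held more UMIs of all genes, whose part was not tested.

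**Figure D3:**
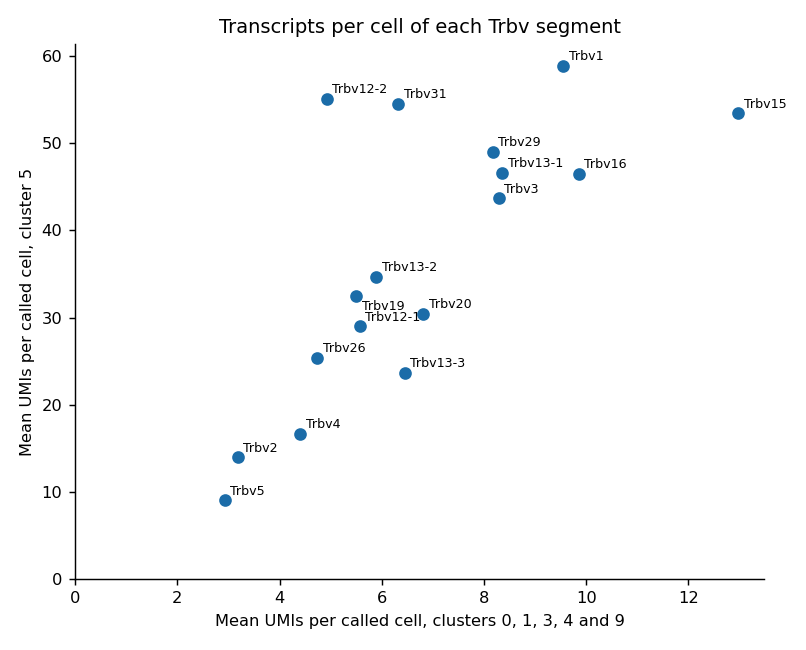
Mean UMIs of the called segment per called cell in cluster 5 (vertical) against clusters 0, 1, 3, 4 and 9 (horizontal), all libraries together, for segments with 20 or more called cells in both. Trbv12-2 and Trbv31 lie above the other segments with similar horizontal values, and Trbv5 is lowest on both axes.

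Among Trav families Trav13 had the largest mean share, and Trav7 lay above it in ICI 1 (12.7%). Trav13 held 11.8%, 14.97%, 14.3% and 14.4% of Trav UMIs in ICI 1 to 4, against 15.9% in isotype. Trav7, Trav3, Trav5, Trav6, Trav9, Trav14, Trav4, Trav8 and Trav15 followed, and these 10 held 81.3% of Trav UMIs as a mean over libraries. Trav22 had 0 UMIs in 33962 Trav UMIs. Trav9 was above isotype in all 4 ICI libraries (8.58%, 8.24%, 7.69% and 6.21%, against 6.01%), by 0.197 points in ICI 4. Trav13, Trav3 and the rare Trav18 were below it, the last with 4 UMIs, all in isotype. Counted by cells, Trav13 stood at 10.4%, 11.6%, 10.9% and 11.7% in ICI 1 to 4, against 15.2% in isotype. By cells Trav3 stood at 7.94%, 4.04%, 7.87% and 8.08%, against 7.99%, with ICI 4 above. In clusters 0, 1, 3, 4, 6 and 9 Trav13 held 11.7%, 15.8%, 13.5% and 12.7% of Trav UMIs in ICI 1 to 4, against 14.6% in isotype, with ICI 2 above. These are 1 and 3 of 23 families, against the background of 23.2% and 22.5% given above, and no family passed (lowest exact permutation p = 0.2; adjusted p = 1). Trav3 held 8.79%, 5.46%, 7.63% and 9.64% in ICI 1 to 4, against 10.02% in isotype, a mean difference of -2.14 points that was -0.381 with ICI 4 alone. Trav4 held 8.03%, 6.97%, 3.46% and 6.73% in ICI 1 to 4, against 6.76% in isotype. In both families the ICI libraries lay more than 4 points apart from lowest to highest.

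The Trav14 family shows how copies and sums can part. Its share was 7.17%, 7.64%, 6.85% and 7.34% in ICI 1 to 4, against 7.35% in isotype, so all libraries lay within 1 point. Within the family, Trav14d-3-dv8 held 31.0%, 81.1%, 82.5% and 33.6% in ICI 1 to 4, against 33.0% in isotype. Trav14-1 held 24.0%, 11.98%, 8.96% and 35.6% in ICI 1 to 4, against 34.2% in isotype, and Trav14n-3 held 31.7%, 3.23%, 5.19% and 19.7%, against 20.6%. Of the other copies, Trav14-2 held 7.33%, 2.30%, 3.30% and 7.47%, against 7.25%, and Trav14-3 held 6%, 1.38%, 0% and 3.70%, against 4.93%. ICI 2 and ICI 3 were apart from the other 3 libraries in each of the 5 copies while the sums matched. Trav14d-3-dv8 is 92.9% identical to Trav14-1, 97.2% to Trav14-3, 75.1% to Trav14n-3 and 72.3% to Trav14-2. In the Trav10 family, where Trav10 and Trav10d are 99.1% identical, Trav10d held 5.63%, 31.4%, 35.1% and 7.73% of the family in ICI 1 to 4, against 3.18% in isotype, with the same pair apart. Trav10 and its copies lie outside the naming rule and were chosen after their values were seen. The cause of the split was not tested.

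**Figure D4:**
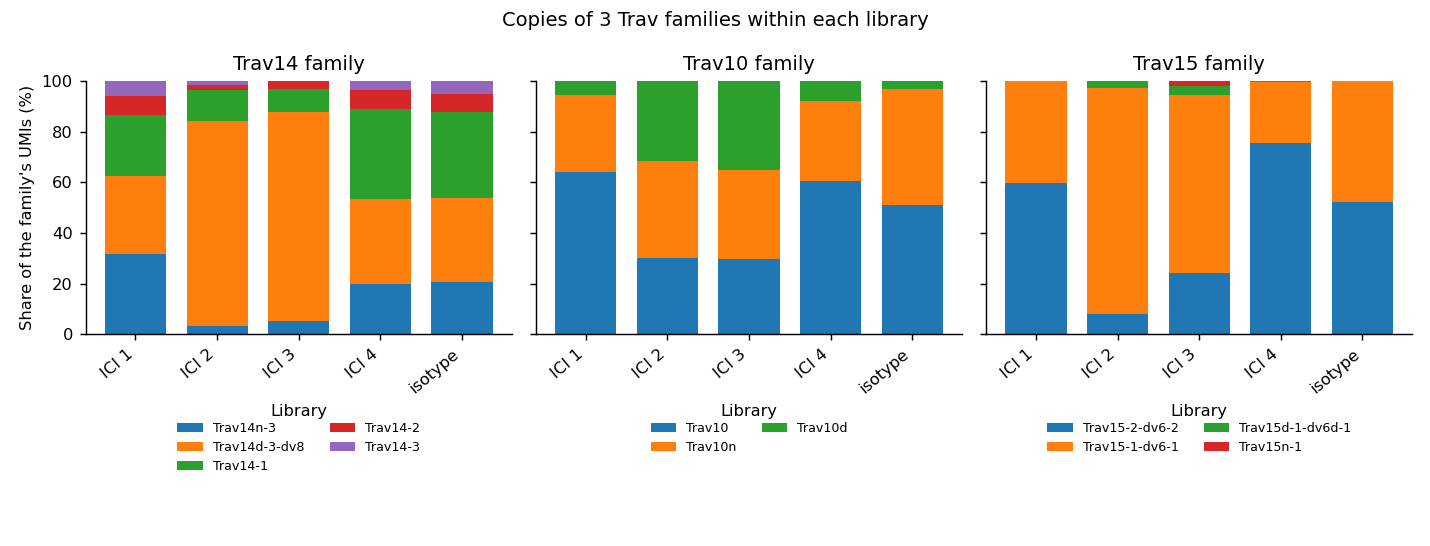
Share of each family's UMIs held by each of its copies in every library, for Trav14, Trav10 and Trav15; bars add up to 100% within a library. ICI 2 and ICI 3 have more Trav14d-3-dv8, Trav10d and Trav15-1-dv6-1 than the other libraries.

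Whole profiles were compared between libraries. With 1 isotype library, a grouping by treatment could be neither shown nor refuted. The dissimilarity of 2 libraries, which sums the points by which one exceeds the other and is 0% for equal profiles, was lowest between ICI 4 and isotype at 3.43% over Trav families and 7.93% over Trav segments. The same measure was 16.1% over Trav segments between ICI 2 and ICI 3 and 23.005% to 26.9% between either of them and any of the other 3 libraries. Over Trbv segments, ICI 4 and isotype differed by 10.8% and ICI 1 and ICI 4 by 9.14%. ICI 4 and isotype were also the libraries with most Trav UMIs, 19152 and 4691.

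Trav17 to Trav21, which lie toward the joining-segment end of the locus, were used more in some clusters than in others. Trav23 (37 UMIs, 243 kb from Trac) and Trav22 (0 UMIs) lie nearer still and are not in this set. Trav17 to Trav21 held 11.3% of Trav UMIs in cluster 5, 10.3% in the gamma-delta T-like cluster 6 and 26.0% in cluster 15, where clusters 0 to 4 had 3.17% to 4.45% and the thymocyte-like cluster 11 had 3.26%. The thymocyte-like clusters 2 and 11 thus did not share the high value of cluster 5. The cluster 15 value rests on 52 of 200 Trav UMIs, of which 40 were Trav21-dv12 in 4 cells of ICI 4 and 6 were the same segment in 1 isotype cell. In cluster 6 the share was 0.769% of 130 Trav UMIs in ICI 4, against 14.2% of 120 in isotype. In cluster 5 Trav17 to Trav21 held 6.02%, 2.65%, 8% and 12.9% in ICI 1 to 4, against 11.6% in isotype, on 166, 151, 200, 1585 and 508 Trav UMIs. In ICI 4 and isotype most of this was Trav21-dv12 (chr14:53875984-53876752, plus strand), a segment that the delta chain can also use, with 182 of the 205 UMIs in ICI 4 and 48 of the 59 in isotype. In ICI 2 and ICI 3 it had 0 of 4 and 2 of 16. Over whole libraries, Trav17 to Trav21 held 4.59%, 3.45%, 3.46% and 4.74% in ICI 1 to 4, against 4.75% in isotype. All 4 were below isotype, ICI 4 by 0.013 points, and the exact permutation p was 0.6.

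The 9 dv segments, which both loci can use, held 14.996% of Trav UMIs and were concentrated in cells with transcripts of Trdc, the delta constant gene. In cells with 2 or more Trdc UMIs they held 37.9%, 74.2%, 71.5% and 46.8% of Trav UMIs in ICI 1 to 4 and 31.6% in isotype. In cells with 0 Trdc UMIs they held 10.3%, 18.2%, 15.9% and 10.8% in ICI 1 to 4 and 11.5% in isotype. Trdc cells were higher in 5 of 5 libraries, with a mean of 52.4% ± 19.5 against 13.3% ± 3.48 (SD, n = 5; exact two-sided sign-flip permutation p = 0.0625, the smallest possible). Without cluster 8 the Trdc cells stood at 39.8%, 26.7%, 42.5% and 51.0% in ICI 1 to 4 and 35.1% in isotype, with 15 Trav UMIs behind the ICI 2 value and 40 behind that of ICI 3. They were still higher in 5 of 5 libraries, by a mean of 26.3 points in place of 39.0.

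Which dv segment it was differed by library and cluster. Among Trdc cells, Trav15-1-dv6-1 (chr14:53559632-53560247, plus strand) held 9.29%, 68.2%, 47.7% and 6.56% of Trav UMIs in ICI 1 to 4, against 6.13% in isotype. Trav15-2-dv6-2 (chr14:53649404-53649994, plus strand) held 7.14%, 1.52%, 16.9% and 23.8% in ICI 1 to 4, against 10.4% in isotype. The first was high in ICI 2 and ICI 3 and the second in ICI 4 and ICI 3. These 2 segments are 75.9% identical. Among the same cells, Trav21-dv12 held 18.6%, 0%, 0% and 9.81% in ICI 1 to 4, against 11.1% in isotype. Trav14d-3-dv8, although a dv segment, held 1.24% of Trav UMIs in Trdc cells and 3.17% in cells without Trdc over all libraries, with ICI 1 the other way round (2.86% and 2.20%). Over all libraries, Trav15-1-dv6-1 (11.6% and 0.679%), Trav15-2-dv6-2 (19.0% and 0.607%) and Trav21-dv12 (9.56% and 2.74%) were higher in Trdc cells. Trav16d-dv11 was near level (3.6% and 3.06%). Trav4-4-dv10 (0.311% and 1.24%), Trav6-7-dv9 (0.356% and 0.388%) and Trav13-4-dv7 (0% and 0.0783%) were not higher. Trav13-2, not a dv segment and named after its values were seen, was higher too (14.0% and 3.11%), but not in ICI 1 (0% and 2.17%).

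The natural killer-like cluster 8 also held CD3 and receptor transcripts, with Cd3e found in 78.9% of its cells and Trdc in 39.0%. Trgv2, a variable segment of the gamma chain, was found in 56.5% and Trac in 24.3%. In the type 2 innate lymphoid-like cluster 10, Cd3e was found in 13.0% and Trdc in 2.65%. Cluster 8 carried 110 of the 136 Trav15-1-dv6-1 UMIs of ICI 2 and 157 of the 182 of ICI 3. There the Trav15 family held 64.6%, 68.4% and 21.0% of Trav UMIs in ICI 2, 3 and 4, against 11.2% in isotype, and ICI 1 had under 100 Trav UMIs. Of the 474 cells of cluster 8, 145 had a Trav15 UMI. A Trdc UMI was present in 25%, 60%, 65.9% and 71.7% of those cells in ICI 1 to 4 and 66.7% in isotype. Among the cluster 8 cells without Trav15 it was present in 14.7%, 18.3%, 13.2% and 40.5% in ICI 1 to 4 and 32.8% in isotype. The Trav15 cells were higher in 5 of 5 libraries, with a mean of 57.9% ± 18.8 against 23.9% ± 12.1 (SD, n = 5; exact two-sided sign-flip permutation p = 0.0625), and the ICI 1 value rests on 8 cells. Trbv UMIs numbered 1.97 per cell in the Trav15 cells and 4.02 per cell in the others, with isotype the exception at 4.13 and 4.00.

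**Figure D5:**
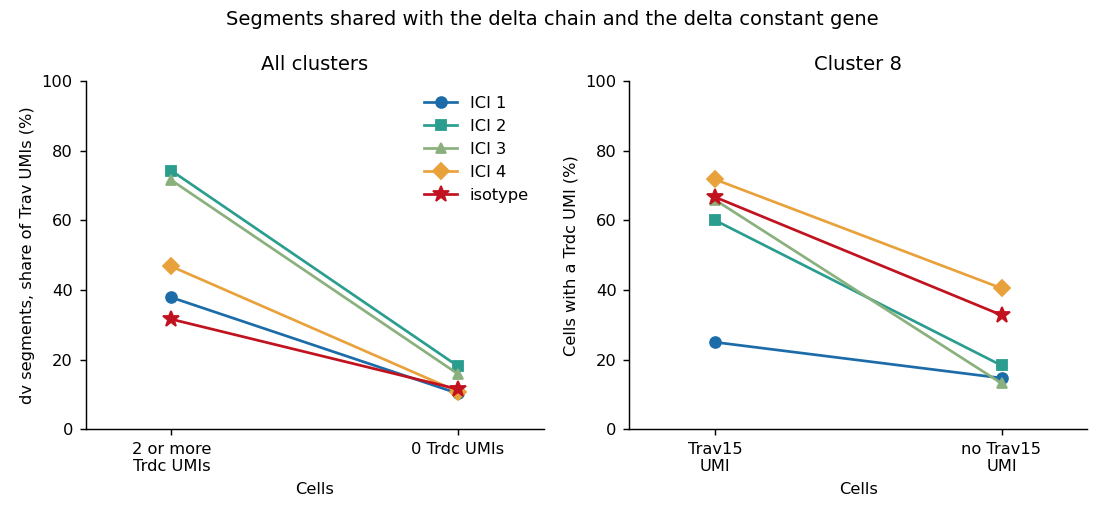
Left, share of Trav UMIs held by the 9 dv segments in cells with 2 or more Trdc UMIs and with 0; right, share of cluster 8 cells with a Trdc UMI among cells with and without a Trav15 UMI. Lines join the values of 1 library, and all 5 lines are higher at the left end in both panels.

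Cluster 15, a group of 116 cells mostly of ICI 4, had the largest Trbv13-2 share of all clusters with 200 or more Trbv UMIs. Trbv13-2 held 47.9% of its Trbv UMIs (50% in ICI 4, with 82 cells, and 43.8% in isotype, with 14 cells), while it held 11.96% to 19.0% in the other clusters it led. It was found in 74 of 116 cells. Trbv12-2, its neighbour on the chromosome, was found in 33 cells, of which 29 also had Trbv13-2. In cluster 5, 126 of the 163 cells with Trbv12-2 also had Trbv13-2, which was found in 44.5% of all its cells. In cluster 0, 70 of 113 did, with Trbv13-2 in 27.9% of all its cells. Clusters 5 and 0 had 41.3 and 7.05 Trbv UMIs per cell. Whether the segments were found together more often than their abundance gives was not tested. The cells of cluster 15 had 6.83 Trbv UMIs each and Trbv13-2 alone reached 5.12 UMIs per cell that had it, compared with 12.3 in cluster 5. Of thymocyte markers, Dntt was found in 78.4% of cluster 15 cells, Rag1 in 24.1% and Ptcra in 27.6%, and Trac in 15.5%. Of the marker lists, 4 of 10 thymocyte and 2 of 4 B cell markers were at 1.5-fold or more in it and none of these was among its 10 leading genes, so the cluster has no cell type name here. Tcrg-C1, Tcrg-C2 and Tcrg-C4, constant genes of the gamma chain, were among those 10 (named after their values were seen), and Trdc was found in 52.6% of the cells.

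Cells with the invariant segment Trav11 were few. There were 21 with 23 Trav11 UMIs, of which 0, 3, 6 and 9 were in ICI 1 to 4 and 3 in isotype, and 11 lay in cluster 6 and 7 in cluster 8. In the mouse this alpha chain is known to pair with beta chains of the Trbv13, Trbv29 and Trbv1 segments. All 20 of those with a called Trbv had a Trbv13 or Trbv29 segment, namely 17 Trbv13 (13 of them Trbv13-2) and 3 Trbv29. Over all other cells with a call, 3116 of 7734 (40.3%, exact Clopper-Pearson 95% interval 39.2% to 41.4%) had a Trbv13, Trbv29 or Trbv1 segment, against 20 of 20 (interval 83.2% to 100%) in Trav11 cells. The intervals cover counting error only. Traj18, the joining segment of the invariant chain, had 24 UMIs in all and was found in 1 of the 21 cells. None of the 50-base stretches of Trav11 is unique to it, since its copy Trav11d is 99.7% identical, so the number of such cells is uncertain.

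Trav1, the segment of mucosal-associated invariant T cells, was found in 117 cells spread over clusters 0 to 9, 11, 12, 15 and 16. Of the 108 with a called Trbv, 31 had a Trbv13 (28.7%) and 10 a Trbv19 segment (9.26%), the segments such cells are known for. Over all other cells with a call, 2209 of 7646 had a Trbv13 (28.9%) and 619 a Trbv19 segment (8.10%). Both background shares lay within the exact Clopper-Pearson 95% intervals of the Trav1 cells, 20.4% to 38.2% for Trbv13 and 4.53% to 16.4% for Trbv19. Trav1 held 1.39%, 0.141%, 0.614% and 1.13% of Trav UMIs in ICI 1 to 4, against 0.789% in isotype, on both sides of it.

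A variable segment was found in most cells of the T cell clusters. In cluster 0, 92.4%, 96.2%, 94.3% and 95.4% of cells in ICI 1 to 4 and 94.96% in isotype had a Trbv UMI. In the gamma-delta T-like cluster 6, 26.2%, 24.5%, 27.9% and 59.7% of cells in ICI 1 to 4 and 61.2% in isotype did. Type 2 innate lymphoid-like cluster 10, whose cells should lack the receptor, gave the background with 13.4%, 1.67%, 5.88% and 4.48% in ICI 1 to 4 and 10.3% in isotype. The median depth was 3682.5 UMIs in cluster 6, 3418 in cluster 0 and 3562 in cluster 10. Cluster 6 lay below cluster 0 in 5 of 5 libraries (mean 39.9% against 94.6%; exact two-sided sign-flip permutation p = 0.0625), and so it did with cells thinned to 1000 UMIs (23.5% against 79.5%). These clusters were built from expression of the same cells, which may include these genes. Macrophage-like cluster 7 reached 29.8%, 5.52%, 7.41% and 48.9% in ICI 1 to 4 and 72.1% in isotype, above cluster 10 in all 5 libraries and the most in isotype. Its median depth also differed by library, at 3403, 3403, 3471.5 and 8726 for ICI 1 to 4, where isotype had 9932. After thinning, cluster 7 stood at 19.6%, 2.55%, 1.67% and 20%, against 54.3% for isotype. Cluster 10 then stood at 7.79%, 1.67%, 4.44% and 2.99%, against 7.69% for isotype, so cluster 7 lay below it in ICI 3. In cluster 7, 79.8% of the cells with 2 or more UMIs of both chains held 2 or more Trbv segments, compared with 44.6% in cluster 0.

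More than 1 segment per cell was common, and more so for Trav. Among cells with 2 or more UMIs of both chains, 2 or more Trav segments were seen in 66.3%, 58.0%, 64.4% and 70.1% in ICI 1 to 4 and 80.8% in isotype. For Trbv the shares were 48.2%, 30.5%, 40.4% and 49.4% in ICI 1 to 4 and 66.6% in isotype. Trav exceeded Trbv in 5 of 5 libraries, with a mean of 67.9% ± 8.42 against 47.0% ± 13.3 (SD, n = 5; exact two-sided sign-flip permutation p = 0.0625). With 2 or more UMIs required of each segment, the means were 39.7% for Trav and 28.2% for Trbv, and Trav exceeded Trbv in 4 of 5 libraries, isotype being the exception (48.1% and 51.9%). With families in place of segments, which joins near-identical copies, the Trav mean was 58.8% and the Trbv mean 44.5%. In cluster 5 alone the order was level, with 67.0% of cells for Trav and 67.9% for Trbv. Free transcripts and droplets that hold 2 cells give extra segments too, and their part was not tested.

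Pairs of segments were diverse in every library. Among cells with a call for both chains, the most frequent pair made up 1.21%, 1.70%, 1.83% and 1.19% in ICI 1 to 4 and 1.56% in isotype. It was Trav3-3 with Trbv13-2 in ICI 1, ICI 4 and isotype, and Trav14d-3-dv8 with Trbv16 in ICI 2 and ICI 3. The 3206 such cells of ICI 4 held 835 different pairs and the 704 of isotype held 426. No junction sequence was used here, so cells that share a pair are not shown to share a receptor.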

How the data were processed

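UMI counts per gene and cell, the library of each cell and the cluster numbers are the values the authors deposited; per the submitters' processing notes they were made with Cell Ranger and Seurat on mm10, with versions not given in the sources used here. Mitochondrial percent per cell was deposited too and enters no result. The 10275 cells were used with no further filter, and no doublet caller was run; removing cells with 2 Trbv segments at 2 or more UMIs each was an alternative. Whether the authors had removed doublets is not given in the sources used here. ICI libraries were numbered in accession order, ICI 4 holds 2 sequencing runs, and nothing ties single mice to libraries.

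Shares were compared over libraries with exact two-sided permutation tests (4 against 1) and, between kinds of cells within libraries, exact two-sided sign-flip tests. Summed counts were tested with edgeR 4.0.16 in R 4.3.3 (quasi-likelihood, TMM scaling, minimum count 10, Benjamini-Hochberg adjustment, threshold 0.05) and, as an alternative, DESeq2 1.42.0. Only edgeR was tested on simulated data. Thinning to 1000 UMIs left out 596 of 8923 ICI and 21 of 1352 isotype cells. Effective numbers are means of 100 draws of cells. Identities and 50-base stretches were computed with Python 3.11.15 and Biopython 1.88.

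Named were the 10 Trbv segments and 10 Trav families with the largest mean share, the 5 with the largest difference in each direction among those with all ICI libraries on 1 side of isotype, the leading one of each cluster, and dv and semi-invariant segments. The members and lists were chosen with earlier results of these data known. Intervals are exact Clopper-Pearson and cover counting error only.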

Additional observations from a re-analysis of the deposited data

Results flagged for a closer look

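Of 36 groups of 4 ICI values checked, 3 had 1 library far from the others, where chance gives about 1 in 20. Trbv UMIs per Trav UMI were 3.20 in ICI 4 and 1.58 to 1.72 in the other ICI libraries, against 4.04 in isotype. Trbv22 held 0.0604% of Trbv UMIs in ICI 4 and 0% in the other ICI libraries, against 0.0686% in isotype. Trav7 held 9.09% of Trav UMIs in ICI 2 and 12.1% to 12.7% in the other ICI libraries, against 11.2% in isotype.

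Shares of some named Trbv segments were checked in clusters 0, 1 and 4, with 27 values in all. For 5 of these segments, all ICI libraries lay on one side of isotype in one cluster and on the other side in another. All 4 ICI libraries on 1 side of isotype is common by itself. By level over the T-lineage clusters, 25.8% of all genes tested lay above isotype in all 4 and 27.7% below. These differences between clusters were not tested, and isotype had 119, 45 and 28 cells in clusters 0, 1 and 4. Trbv1 was higher in ICI by a mean of 6.21 points in cluster 0 and 7.54 points in cluster 1, and lower in cluster 4 (-8.97 points). Trbv12-1 was higher in cluster 4 by 1.27 points, and lower in cluster 0 (-1.93) and cluster 1 (-2.12). Trbv15 was higher in cluster 0 by 2.73 points, and lower in cluster 1 (-4.27). Trbv16 was higher in cluster 4 by 8.87 points, and lower in cluster 1 (-5.00). Trbv31 was higher in cluster 1 by 2.27 points and in cluster 4 by 6.23 points, and lower in cluster 0 (-4.26).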

How the results depend on the processing

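Of 330 alternative values of named shares 278 were counted as the same, 48 as moved and 4 as reversed. Of 159 of other results 138 were counted as the same, 20 as moved and 1 as reversed. Not every change of direction was counted as reversed. Counted by cells, Trav6 differed by 0.372 points in place of -0.774, and Trav1 by -0.201 in place of 0.0297. Neither was among the values counted as reversed. The causes of the changes were not tested. All values here are ICI minus isotype unless stated. With ICI 4 and isotype only, the Trav level differed by 0.160 per 10000 UMIs in place of 1.68, the Trbv level by -4.36 in place of -8.67, the ratio by -0.844 in place of -2.0002 and the effective number of Trav families by 0.0993 in place of -0.250. With cells of 2 Trbv segments removed, the Trbv level differed by -4.52, the ratio by -1.22, Trav17 to Trav21 by 0.519 points (reversed from -0.694) and Trbv22 by 0.00542 points (reversed). In the T-lineage clusters only, the Trbv level differed by -12.5 and the effective Trav number by -0.671. In clusters 0, 1, 3, 4, 6 and 9 the Trbv level differed by -3.85, the ratio by -0.843, Trav17 to Trav21 by -1.60 points, the effective Trav number by -1.16 and Trbv13-3 by -0.197 points (reversed). Without cluster 5 the ratio differed by -1.19, and without clusters 2, 5 and 11 the Trbv level by -1.77. Counting each cell once reversed Trbv15 (-0.248 points) and Trbv22 (0.0113 points). From UMI shares the effective Trbv number differed by -0.790 in place of -1.79.

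Leaving out ICI 1 moved the Trav level difference to 1.01, Trbv16 from 0.855 to 0.527 points and Trav13 from -2.06 to -1.36 points; leaving out ICI 2 moved Trav3 from -2.14 to -1.33 points. Leaving out 1 library, edgeR called 0 to 210 genes over all cells and 0 to 373 over the T-lineage clusters, with 0 to 2 members. Only leaving out ICI 4 gave any, 210 of 12503 genes tested over all cells and 373 of 11440 over the T-lineage clusters. The members called were 0 of 80 and 2 of 79 tested. DESeq2 called 38 and 25. No paired analysis was possible because the labels give no replicate numbers shared between the groups and isotype is 1 library. Segments within 150 kb of Trac were not run as an alternative, since the nearest Trav lies 243 kb away; 500 kb, and leaving out clusters 2, 5, 8 and 11, were chosen after seeing the data. Depth limits ICI 2 and ICI 3 most, with 2839 and 3095 Trav UMIs.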
